A study of Mus musculus with 6 samples.

Results

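Heme oxygenase and the other heme metabolism genes were followed as a set of 10, taken by symbol: Hmox1, Hmox2, Blvra and Blvrb for the breakdown of heme, Slc48a1 for its transport, and Alas1, Alad, Urod, Cpox and Fech for its synthesis. All 10 were found among the 17951 genes listed in at least 1 library, and all 10 passed the filter on low counts that left 12390 genes for testing. The cells were bone marrow-derived macrophages of 8-week-old C57BL/6 mice, grown for 4 to 6 days in 10% fetal bovine serum and 10% L929 medium, which supplies the growth factor M-CSF. Both groups received Pam3CSK4, a lipopeptide ligand of Toll-like receptor 2, for 6 h, and 1 of the groups was first given dopamine (DA) for 2 h. Each group had 3 libraries, and the labels do not say whether these came from separate mice or cultures, so a p-value here sets a difference against the spread of libraries, which may be technical. The culture was not sorted, and the Pam3CSK4 level is itself a stimulated level, since untreated macrophages and DA without the ligand were not analysed here.

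Heme is an iron-porphyrin cofactor that is made in a chain of enzyme steps running between mitochondria and cytosol and is toxic when free. Heme oxygenase opens the ring and releases iron, carbon monoxide and biliverdin, and biliverdin reductase turns biliverdin into bilirubin. Macrophages are the main site of heme recycling in the body because they digest aged red cells, and the inducible heme oxygenase gene Hmox1 is a classic target of the transcription factor NRF2 and of the heme-binding repressor BACH1.

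Of the 10 genes, 8 were higher with DA, none was lower, and Blvra and Cpox did not pass the test. Hmox1 stood far above the rest with a 15.5-fold rise, Slc48a1 followed with 3.39-fold, and the other 6 rose between 1.19-fold (Hmox2) and 1.79-fold (Alad). Over all tested genes 32.6% were called higher and 31.8% lower, 64.4% in all, with the call set at 0.05 on the adjusted p of the quasi-likelihood fit in edgeR. The split of all calls depended on scaling: it was 4043 higher to 3938 lower here and 5055 to 3138 with upper-quartile factors, under which the median gene shifted from 0.02 to 0.135 on the log2 scale. The median over the 10 genes was 0.66, beside 0.02 over all tested genes. A rise of at least 2-fold was called for 2 of the 10 genes, Hmox1 and Slc48a1, beside 7.34% of all tested genes, and a fall of that size for none, beside 7.48%. The 3 DA libraries lay wholly above the 3 Pam3CSK4 libraries for the same number, 8 of 10, where groups did not overlap for 68.7% of all tested genes in either direction and 34.7% in the direction of a rise.

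**Figure D1:**
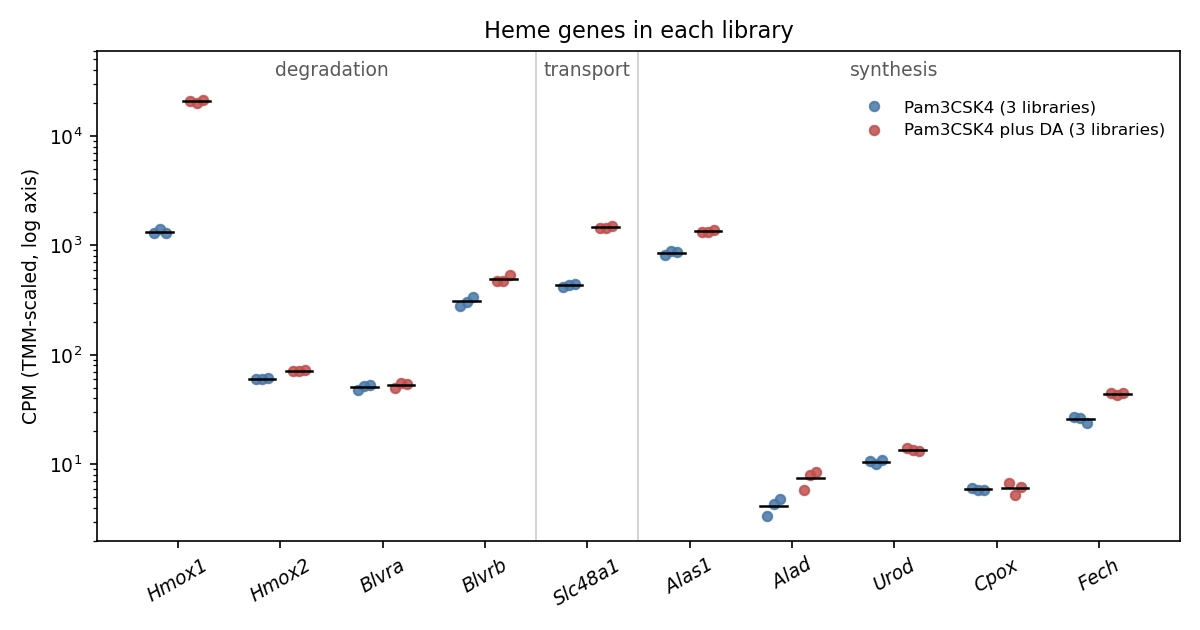
CPM (counts per 1000000 of the TMM-scaled total, log axis) of each of the 10 heme genes in each library, with Pam3CSK4 libraries in blue, Pam3CSK4 plus DA libraries in red and a black bar at the mean of 3. Hmox1 moved from 1303 to 1407 CPM up to between 20184 and 21244 CPM, while the points of Blvra and Cpox overlap between the groups.

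The libraries were of nearly equal depth, from 21337932 to 21518425 expected counts. Macrophage markers were high in sum: the 8 markers had between 20698 and 21078 FPKM with Pam3CSK4 and between 16504 and 17473 FPKM with DA. Lyz2 made up most of each sum, at a mean of 16689.7 and 12916.5 FPKM. Of the 8, 5 were lower and 1 higher. Adgre1 went from a mean of 620.4 to 276.4 FPKM and Mertk from 4.04 to 2.26, while Fcgr1, the 1 that rose, went from 53.3 to 152.7. The part of these markers in the results below was not tested. Erythroid markers, which bear on heme genes because erythroid precursors make most of the body's heme, summed to between 0.19 and 0.41 FPKM in any library, and Hba-a2, Hbb-bs, Hbb-bt, Slc4a1 and Ahsp were listed in none of the 6. The 8 neutrophil markers summed to between 368.2 and 471.5 FPKM with Pam3CSK4 and between 1411 and 1456 with DA. S100a8 was the only one called higher, and 2 were lower. Mean FPKM with Pam3CSK4 and with DA was 169.6 and 1154.7 for S100a8, 177.1 and 201.6 for S100a9, and 56.8 and 54.3 for Ngp. The means were 15.8 and 11.9 for Camp, 2.61 and 2.45 for Ltf, and 1.64 and 1.36 for Mpo. Elane had 1.04 and 1.0, and Ly6g 0.313 and 0.343. Fibroblast markers summed to between 146.9 and 162.6 FPKM in all libraries, and B cell, T and NK cell and dendritic cell lists to under 2 FPKM. Of the 5 fibroblast markers 2 were called lower and none higher. Of the 2 dendritic cell markers tested, 1 was higher and 1 lower. In bulk RNA, a change in the number of cells of a type and a change in RNA per cell cannot be told apart.

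Heme breakdown begins with Hmox1, the inducible heme oxygenase, which lies on chromosome 8 from 75093621 to 75100589 (GRCm38, GENCODE's annotation) and is a protein-coding gene. It had 1305, 1407 and 1303 CPM in the 3 Pam3CSK4 libraries and 20669, 20184 and 21244 CPM with DA. The groups were separated by more than 10 times the spread within either, with SDs of 59.3 CPM (Pam3CSK4) and 530.7 CPM (DA, n = 3 each). The log2 fold change was 3.95 (SE 0.0546; adjusted p = 5.45e-15, edgeR), the 17th highest of the 12390 tested genes. Hmox1 alone took 0.13% ± 0.00622 of all expected counts in the Pam3CSK4 group and 2.14% ± 0.0361 in the DA group (SD, n = 3). A two-sided exact permutation test of this share gave p = 0.1, the smallest that 3 libraries against 3 allow. By count Hmox1 ranked between 77th and 95th in the Pam3CSK4 libraries and 3rd in every DA library. By FPKM, which accounts for length, it ranked between 74th and 100th and then 4th or 5th. The other 9 heme genes together rose from between 0.163% and 0.174% of counts to between 0.355% and 0.369%.

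Hmox2, the constitutive heme oxygenase, changed far less. It had 60.3, 60.2 and 61.1 CPM with Pam3CSK4 and 70.8, 71.0 and 73.4 CPM with DA, so the libraries of a group lay close together and the groups did not overlap. The log2 fold change was 0.24 (SE 0.0535; adjusted p = 0.0011, edgeR) and 0.36 with upper-quartile factors. Per length, Hmox1 exceeded Hmox2 by 17.0-fold with Pam3CSK4 and by 222-fold with DA. The log2 ratio of the pair was 4.09 ± 0.0708 and 7.80 ± 0.0194 (SD, n = 3), and the exact permutation test of the difference gave p = 0.1, adjusted to 0.133 over the 4 pairs of genes compared. Hmox2 shares 892 exonic bases, 40.2% of its own, with Cdip1 on the opposite strand, and no source used here says whether the libraries kept strand. Cdip1, named after its value was seen, had a log2 fold change of 0.11 (SE 0.0683, adjusted p = 0.168, edgeR). It was called higher with upper-quartile factors (0.23, adjusted p = 0.0103, edgeR). The same held in limma on log2(FPKM + 1) (0.17) and on log2(FPKM + 0.1) (0.20). The expected counts of Hmox2 were not whole numbers in any library, as happens where reads are shared between genes or copies. Those of Cpox were not whole in any library either. Urod had whole counts in 1 of 6 libraries and Fech in 4 of 6. Alas1 shares 465 exonic bases (7.53% of its own) with 4930500F10Rik, and Cpox 204 (3.06%) with Gpr15, both on the opposite strand.

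The biliverdin reductase genes differed. Blvrb, whose product reduces biliverdin and flavins, had 278.4, 307.1 and 341.4 CPM with Pam3CSK4 and 477, 469 and 532.2 CPM with DA, with every DA library above every Pam3CSK4 library. Its log2 fold change was 0.67 (SE 0.0727; adjusted p = 1.73e-06, edgeR). Blvra, the major biliverdin reductase of adult tissue, had 47.8, 51.9 and 52.6 CPM with Pam3CSK4 and 49.8, 55.3 and 53.9 CPM with DA, and the groups overlapped. Its log2 fold change was 0.06 with an interval of 2 SE from -0.06 to 0.19 (adjusted p = 0.406, edgeR). Blvra passed the threshold with upper-quartile factors (0.18; adjusted p = 0.0303) and on log2(FPKM + 1) (0.15; adjusted p = 0.0402). The log2 ratio of Blvrb to Blvra per length rose from 3.29 ± 0.0855 to 3.91 ± 0.116 (SD, n = 3), with no overlap between groups and an exact permutation p of 0.1 (0.133 adjusted over the 4 pairs).

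**Figure D2:**
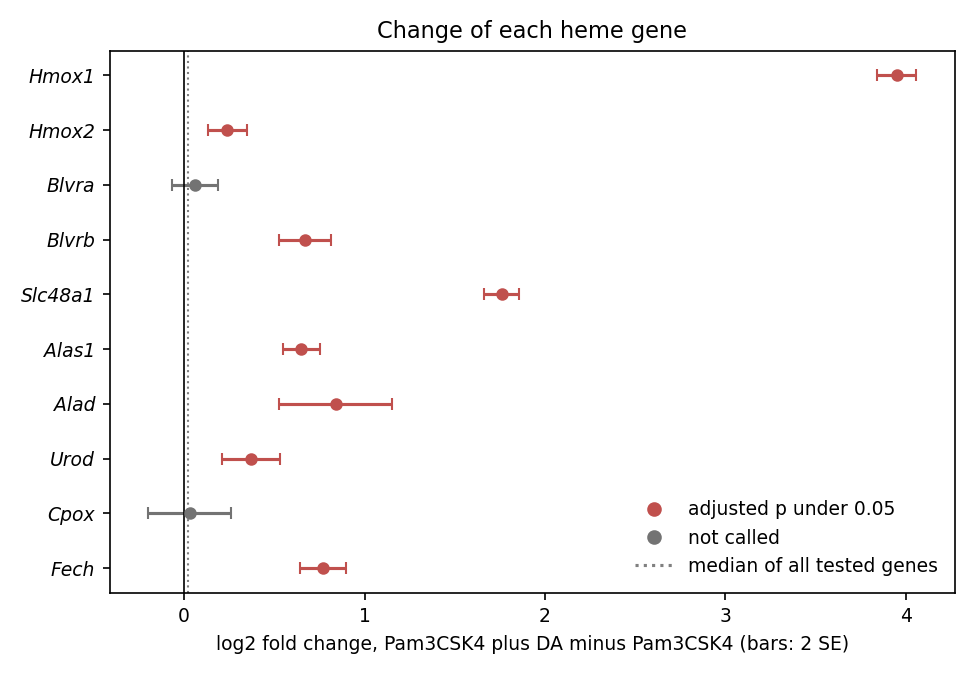
Log2 fold change of each heme gene, DA group minus Pam3CSK4 group, from edgeR with bars of 2 SE; red points passed an adjusted p of 0.05, grey points did not, and the dotted line is the median of all tested genes (0.02). Hmox1 (3.95) and Slc48a1 (1.76) stand to the right, and the bars of Blvra and Cpox cross 0.

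Slc48a1 encodes HRG1, the transporter that carries heme out of the phagolysosome into the cytosol when macrophages digest red cells. It had 418.9, 433.5 and 442.6 CPM with Pam3CSK4 and 1450, 1450 and 1489 CPM with DA. All 3 DA libraries lay over 3 times as high, and the spread within each group was small. The log2 fold change was 1.76 (SE 0.0489; adjusted p = 1.22e-12, edgeR), 277th highest of all tested genes. Hmox1 rose more than Slc48a1: their log2 ratio per length went from 2.26 ± 0.0704 to 4.45 ± 0.0203 (SD, n = 3; exact permutation p = 0.1, adjusted 0.133). Slc48a1 lies on chromosome 15 from 97778520 to 97792692, and 29 of its exonic bases overlap Hdac7 on the opposite strand.

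Synthesis enzymes rose moderately, in 4 of the 5 cases, beside 32.6% of all tested genes called higher. Alas1, the ubiquitous 5-aminolevulinate synthase that catalyses the rate-limiting step, had 818.2, 882.5 and 870.2 CPM with Pam3CSK4 and 1322, 1314 and 1387 CPM with DA. The groups did not overlap, and the log2 fold change was 0.65 (SE 0.0505; adjusted p = 5.63e-08, edgeR). Fech, ferrochelatase, which inserts iron into protoporphyrin as the last step, rose by a similar amount, from 26.8, 26.7 and 24.1 CPM to 44.7, 43.2 and 44.5 CPM. Its log2 fold change was 0.77 (SE 0.0649; adjusted p = 1.26e-07, edgeR). The log2 ratio of Alas1 to Fech per length went from 5.15 ± 0.122 to 5.03 ± 0.0372 (SD, n = 3), and the groups overlapped (exact permutation p = 0.2, also 0.2 after adjustment). 

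Between these ends of the pathway the values were low. Alad, 5-aminolevulinate dehydratase, had 71, 90 and 98 expected counts with Pam3CSK4 and 129, 179 and 187 with DA, with a log2 fold change of 0.84 (SE 0.157; adjusted p = 0.000322, edgeR). The groups did not overlap, but its relative spread was the widest of the 10 genes, and on the log2(FPKM + 1) scale, which understates the change of low genes, the change was 0.50. Urod, uroporphyrinogen decarboxylase, had 10.7, 10.0 and 10.9 CPM with Pam3CSK4 and 14.0, 13.5 and 13.3 CPM with DA (log2 fold change 0.37, SE 0.0812; adjusted p = 0.00116, edgeR). Every DA library of Urod was above every Pam3CSK4 library. Cpox, coproporphyrinogen oxidase, had 6.06, 5.87 and 5.80 CPM with Pam3CSK4 and 6.72, 5.26 and 6.18 CPM with DA. DA replicate 2 was the lowest and DA replicate 1 the highest of all 6, and the log2 fold change of 0.03 had an interval of 2 SE from -0.20 to 0.26 (adjusted p = 0.813, edgeR). Without DA replicate 1 the value of Cpox was -0.05. Cpox had 117 to 148 expected counts per library.

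Of further enzymes of the pathway, Ppox (protoporphyrinogen oxidase) rose from 7.59, 8.66 and 9.26 CPM to 10.5, 11.0 and 11.0 CPM, with a log2 fold change of 0.35 (SE 0.0953; adjusted p = 0.00514, edgeR). Uros, uroporphyrinogen synthase, had 3.32, 4.38 and 3.51 CPM with Pam3CSK4 and 4.04, 4.36 and 4.72 CPM with DA. These groups overlapped, and its log2 fold change of 0.23 did not pass the test (SE 0.14; adjusted p = 0.17, edgeR), though it did with upper-quartile factors (0.34; adjusted p = 0.0467). Alas2, the erythroid form of the first enzyme, had between 1 and 4 counts in every library and was not tested.

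**Figure D3:**
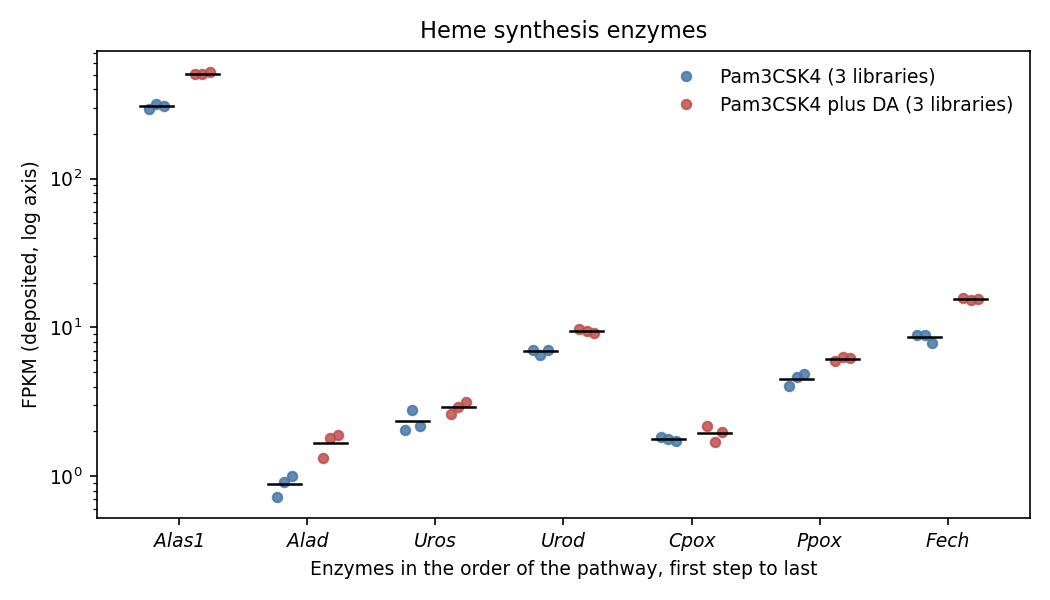
Deposited FPKM (log axis) of the heme synthesis enzymes named in the text, in the order of the pathway, 3 Pam3CSK4 libraries in blue and 3 Pam3CSK4 plus DA libraries in red with a bar at each mean. Alas1 stands at 305.6 and 508.5 FPKM on average, the later enzymes shown are under 16 FPKM, and the groups overlap for Uros and Cpox.

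The order of the levels per length was almost the same in both groups. With Pam3CSK4 it was Hmox1 (797 ± 38.2 FPKM), Blvrb (355 ± 33.2), Alas1 (306 ± 11.1), Slc48a1 (165 ± 3.32), Hmox2 (47.1 ± 0.134), Blvra (35.5 ± 1.58), Fech (8.58 ± 0.584), Urod (6.90 ± 0.298), Cpox (1.79 ± 0.0603) and Alad (0.883 ± 0.139), as mean ± SD of 3 libraries. Each gene was above the next in every library of that group. With DA, Slc48a1 (594 ± 5.24 FPKM) passed Alas1 (509 ± 11.0) and came level with Blvrb (602 ± 37.3), whose libraries overlapped with those of Slc48a1. Hmox1 stood 21.7-fold above the next gene with DA and 2.24-fold above it with Pam3CSK4. Cpox (1.95 ± 0.226 FPKM) and Alad (1.68 ± 0.311) overlapped with DA. The level of Alad per length rests on the 4536 bases that the deposited files give it in every library, where GENCODE's exons of the gene cover 1871 bases.

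**Figure D4:**
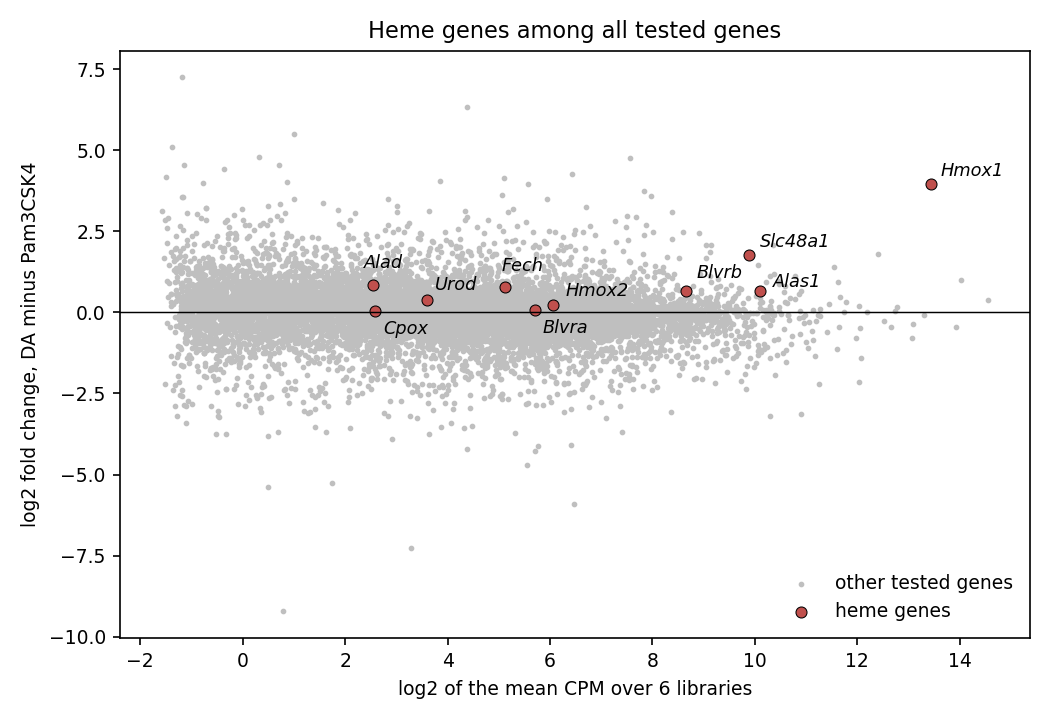
Log2 fold change (DA minus Pam3CSK4) against the log2 of the mean CPM over 6 libraries for all 12390 tested genes in grey, with the 10 heme genes in red. Hmox1 lies alone at the upper right, and the others lie between 0.03 (Cpox) and 1.76 (Slc48a1).

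Promoter windows of RefSeq (GRCm38.p6, 250 bases before to 50 after a start site) were found for 7 of the 10 genes, and not for Hmox1, Slc48a1 and Fech. They were searched on both strands for the core of the antioxidant response element, TGACNNNGC, through which NRF2 and BACH1 act, for the E-box CACGTG and for the cAMP response element TGACGTCA. Of the 12 windows of these 7 genes, 1 held the antioxidant core, that of Blvra, beside 12.4% of all 32851 windows. The E-box was in 3 windows, 1 of Urod and 2 of Alad, beside 7.15% of all windows, and the cAMP element was in none of the 12, beside 1.79% of all. No match overlaps another in these windows. Shown are windows with a match, 1 for each of the 3 genes, 5′ to 3′ on the gene's strand with the match in capitals; the capitals of Blvra are the core on the other strand, 49 bases before the start site.
Blvra, chr2:127070407-127070706, plus strand: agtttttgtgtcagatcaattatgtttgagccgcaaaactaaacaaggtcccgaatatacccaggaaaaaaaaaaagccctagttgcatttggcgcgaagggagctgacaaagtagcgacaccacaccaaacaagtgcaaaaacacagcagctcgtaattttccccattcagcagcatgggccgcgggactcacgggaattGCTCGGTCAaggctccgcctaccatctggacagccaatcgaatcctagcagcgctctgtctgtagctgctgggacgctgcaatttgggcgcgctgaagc
Alad, chr4:62519860-62520159, minus strand: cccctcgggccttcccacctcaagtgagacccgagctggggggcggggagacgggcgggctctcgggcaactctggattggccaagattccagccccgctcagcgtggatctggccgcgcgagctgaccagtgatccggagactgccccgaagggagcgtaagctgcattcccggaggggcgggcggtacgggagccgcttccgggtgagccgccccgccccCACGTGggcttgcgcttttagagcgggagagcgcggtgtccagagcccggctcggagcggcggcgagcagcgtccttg
Urod, chr4:116994364-116994663, minus strand: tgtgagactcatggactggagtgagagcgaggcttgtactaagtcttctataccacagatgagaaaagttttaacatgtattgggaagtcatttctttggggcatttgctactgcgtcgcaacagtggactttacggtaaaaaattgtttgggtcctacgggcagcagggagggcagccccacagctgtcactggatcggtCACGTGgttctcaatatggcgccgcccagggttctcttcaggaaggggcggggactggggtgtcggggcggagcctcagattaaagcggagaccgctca
The E-box matches shown begin 28 bases (Alad) and 49 bases (Urod) before the start site. No window of Blvrb, Alas1, Hmox2 or Cpox held any of the 3 motifs. A match is a match of letters and not a measured binding site.

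Genes that act beside the 10 were followed through lists, and here too the lists describe these libraries without a test of the list. Among 15 tested genes of heme transport and scavenging, 9 rose and 3 fell (median log2 fold change 0.45), beside 32.6% higher, 31.8% lower and a median of 0.02 over all tested genes. The same background holds for each list that follows. Flvcr1, the heme exporter gene that the files list as Mfsd7b, rose from 16.6, 16.1 and 14.3 CPM to 40.7, 40.8 and 41.2 CPM (log2 fold change 1.38, SE 0.0712), and Abcb6, a porphyrin transporter gene, rose 2.69-fold. Hp, which encodes haptoglobin, the plasma scavenger of free hemoglobin, fell from 322.8 ± 42.7 to 133 ± 19.0 CPM (SD, n = 3). Abcg2, a porphyrin and heme exporter gene, fell by 1.30 on the log2 scale (by 0.83 on log2(FPKM + 1)). The third gene that fell was Lrp1, a receptor for the heme and hemopexin complex (-0.64), and the hemoglobin receptor gene Cd163 was not called (-0.07, SE 0.12; adjusted p = 0.636, edgeR); both were named after their values were seen.

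Of 12 tested genes on a list of regulators and partners linked to heme, which also holds heme-sensing kinase and mitochondrial protease genes, 7 rose and 1 fell (median log2 fold change 0.45). Por, the reductase gene whose product supplies electrons to heme oxygenase, rose from 141.1, 147.5 and 149.3 CPM to 478.5, 449.4 and 502.5 CPM (log2 fold change 1.71, SE 0.0568; adjusted p = 6.38e-12, edgeR). Spic, a transcription factor gene of the splenic macrophages that recycle iron, rose 4.00-fold to 88.4 ± 8.70 CPM (SD, n = 3). The repressor gene Bach1 rose 2.04-fold and Keap1, whose product marks NRF2 for degradation, 1.86-fold. Nfe2l2, which encodes NRF2 itself, was the gene that fell, from 486.1, 477.1 and 465.7 CPM to 333.1, 316.9 and 312.2 CPM (log2 fold change -0.57, SE 0.0501; adjusted p = 1.98e-07, edgeR). For all 5 genes the groups did not overlap, beside 8 of the 12 tested genes on the list and 68.7% of all tested genes. Por and Spic were named for the smallest adjusted p among those that rose, so their separation is no further result.

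Among 12 genes of the iron that heme releases or needs, 7 rose and 3 fell, with a median of 0.26, beside 32.6% and 31.8% of all tested genes. The exporter gene Slc40a1, ferroportin, rose most, from 8.65, 8.18 and 8.73 CPM to 179.6, 131.9 and 179.5 CPM, with DA replicate 2 the lowest of its group. The ferritin genes Ftl1 and Fth1 rose 1.99-fold and 1.29-fold, and both have processed pseudogenes that may share reads. Expected counts were whole numbers in every library for Fth1 but not for Ftl1. The call of Fth1 was lost on log2(FPKM + 1) without a filter (0.46, adjusted p = 0.14, limma). Ncoa4, whose product delivers ferritin for breakdown (-0.54), and the iron regulatory gene Ireb2 (-0.57) fell. Tfrc, the transferrin receptor gene, fell as well (-0.24; adjusted p = 0.0128, edgeR), a call lost without Pam3CSK4 replicate 1 (-0.16), without DA replicate 3 (-0.19), with upper-quartile factors (-0.12) and on FPKM.

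Of 17 tested hemoproteins, which carry heme as a cofactor, 4 rose (23.5%), 4 fell and 9 were not called, with a median of -0.02. Beside them, 32.6% of all tested genes rose and 31.8% fell. Across the alternatives, 4 to 5 hemoproteins rose and 3 to 5 fell, so the list lay near the background. Cyb5a, cytochrome b5, rose 5.64-fold and Cyp51, the sterol demethylase, 3.47-fold, with catalase (Cat, 3.15-fold) and the mitochondrial Cyb5b (1.65-fold) beside them. Ptgs2, cyclooxygenase-2, fell from 1791, 1359 and 1462 CPM to 509.5, 502.8 and 419.9 CPM. Cybb, a subunit gene of the phagocyte oxidase, had a log2 fold change of -0.86 (SE 0.0564). Cyba, another subunit gene of that oxidase, was not called (0.03, SE 0.074, adjusted p = 0.772, edgeR). The others that fell were the thromboxane synthase gene Tbxas1 (-0.33) and Nos2, inducible nitric oxide synthase (-0.34; adjusted p = 0.0095, edgeR). Nos2 no longer passed when Pam3CSK4 replicate 2 (-0.20) or DA replicate 3 (-0.28) was left out, with upper-quartile factors (-0.22) or on FPKM. Cat, Cyb5b, Cyba, Tbxas1, Nos2 and Tfrc were named after their values were seen.

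**Figure D5:**
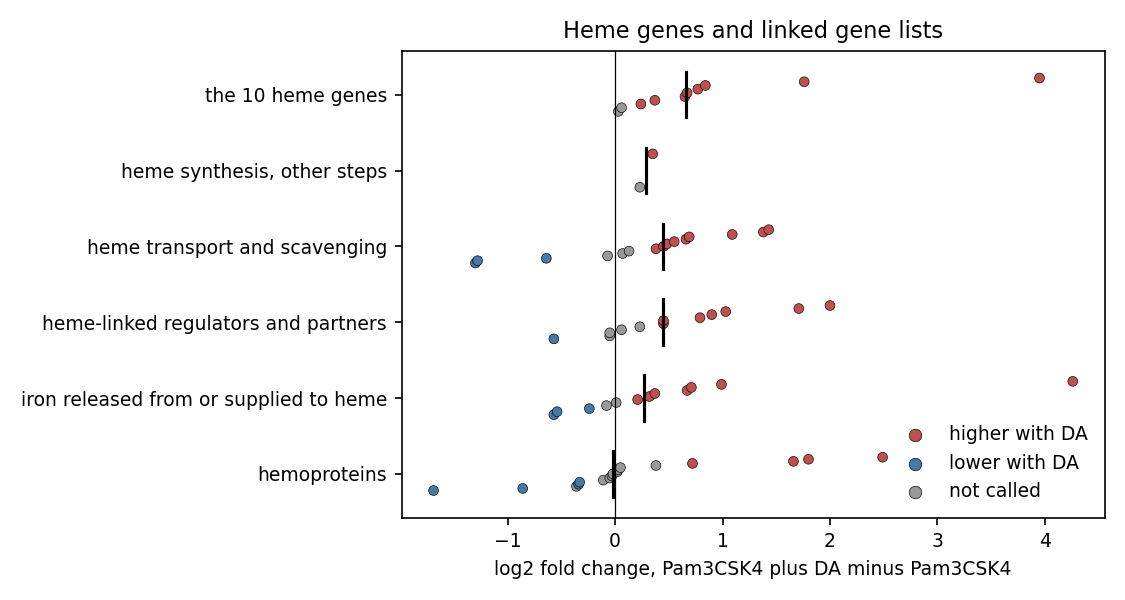
Log2 fold change (DA minus Pam3CSK4) of each tested gene in the set of 10 and in the linked lists; red genes were called higher, blue lower and grey not called, and the black bar is the list's median. The medians run from 0.66 for the 10 heme genes to -0.02 for the hemoproteins, and Slc40a1 (4.26) is the highest point.

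Of 60 genes whose annotation in the files holds the word heme or porphyrin, 52 were tested, and 27 rose and 7 fell. Without the 10 heme genes, 19 of 42 rose (45.2%) and 7 fell, with a median of 0.22, beside 32.6% and 31.8% of all tested genes. Several of the genes left in that list encode subunits of cytochrome c oxidase.

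The genes whose pattern over the 6 libraries was most like that of Hmox1 were sought among 3380 others with a mean of at least 50 CPM, by the root-mean-square difference in centred log2 CPM. The nearest was Ptgr1, a prostaglandin and leukotriene reductase gene (difference 0.111), which went from 30.5, 32.7 and 31.7 CPM to 426.2, 399.8 and 443.1 CPM. Slc40a1 (0.209), Gclc, the catalytic subunit of glutamate-cysteine ligase (0.226), Lrp8, a lipoprotein receptor gene (0.252), and Gss, glutathione synthetase (0.368), came next. Their folds were 13.4 for Ptgr1, 19.2 for Slc40a1, 12.1 for Gclc, 11.1 for Lrp8 and 9.49 for Gss. With groups of 3 and 3, this likeness is mostly a likeness of fold, and no p is given for it.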

How the data were processed

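RNA of 6 libraries of mouse bone marrow-derived macrophages was sequenced on a BGISEQ-500, per the labels' protocols. Groups follow the sample titles; the source field spells the ligand with another last digit in each DA library. Bowtie2 2.2.5 and the build GRCm38.p5 come from the submitters' processing notes, and the quantifier and strand setting are not given in the sources used here. Per the file headers, the deposited files hold expected counts per gene and FPKM values. The counts were taken as the authors' estimates before any scaling, and the FPKM as scaled by length and library size. Each file lists genes with an FPKM of at least 0.01, and an absent gene was set to 0.

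Expected counts were rounded, filterByExpr removed 5561 genes, and 12390 were scaled by TMM (mean factor 0.969 with Pam3CSK4 and 1.03 with DA) and tested with edgeR 4.0.16 by its quasi-likelihood test with no replicate block, with Benjamini-Hochberg adjustment over all of them and a threshold of 0.05. The SE is the log2 fold change divided by the square root of F. CPM are counts per 1000000 of the TMM-scaled total. Ratios of 4 gene pairs and the share of Hmox1 used two-sided exact permutation tests over 20 assignments. The smallest p that these tests can give is 0.1, so none of them could pass 0.05. No 2 libraries of a group agreed within counting noise (chi-square per degree of freedom of 3.302 or more). The fit was tested on simulated counts in which few genes changed, evenly up and down. That setting does not bear on the scaling of these libraries, where 64.4% of tested genes were called.

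Genes were named by a rule: all 10 heme genes, Uros, Ppox and Alas2, the genes of smallest adjusted p in each list, up to 2 in each direction, Bach1, Nfe2l2, Keap1, Slc40a1 and Fth1, and the 5 genes most like Hmox1. Others are said to be named after their values were seen. The heme genes, lists, tests and alternatives were chosen with earlier results of these data known. Alternatives were DESeq2 1.42.0, its size factors, upper-quartile factors, other count filters, limma 3.58.1 on log2(FPKM + 1) with and without a filter and on log2(FPKM + 0.1), library sizes without Hmox1 or without the 50 most abundant genes, the replicate block, and each library left out. A share of counts has counting error besides its SD. A result on 1 item is not reported here.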

Additional observations from a re-analysis of the deposited data

How the results depend on the processing

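Across 17 alternatives, Hmox1 stayed between 3.92 and 4.07, Slc48a1 between 1.73 and 1.88 and Fech between 0.72 and 0.88 on the log2 scale, and the 8 heme genes called higher were called in each. The count of heme genes higher was 8 or 9, the ninth being Blvra with upper-quartile factors and in 2 of the FPKM fits. Leaving Hmox1 out of the library sizes gave 3.95 for Hmox1. The sign of Cpox turned without DA replicate 1 (-0.05), and the cause was not tested; leaving out each library in turn gave -0.05 to 0.12. As a share of summed FPKM instead of counts, the difference of Hmox1 was 2.2 percentage points instead of 2.01, a measure that divides by length. Same-numbered libraries of the groups had correlations of their deviations of 0.102, -0.025 and 0.035, and Pam3CSK4 replicates 2 and 3 correlated best with another number. All such correlations between the groups lay between -0.126 and 0.102. Deviations from a mean of 3 libraries are tied to one another, so these values cannot show whether the numbers pair the samples. With the replicate block, Hmox1 had 3.95, 8 heme genes were higher and 0 lower, and 4223 of all genes were higher and 4111 lower. Alad (71 to 187 expected counts per library) and Cpox (117 to 148) had the fewest counts of the 10 genes, and the part of counting error in their spread was not tested.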

Other observations

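The 4 genes named here act on heme A or on heme attachment, or are related to such genes, and were chosen after their values were seen. Cox10, which makes heme O, the precursor of heme A in cytochrome c oxidase, fell from 17.6, 20.7 and 21.1 CPM with Pam3CSK4 to 9.53, 12.3 and 11.6 CPM with DA (log2 fold change -0.83, SE 0.103; adjusted p = 7.21e-06, edgeR). Cox15, which turns heme O into heme A, rose by 0.23 (SE 0.0631; adjusted p = 0.00548, edgeR). Rsad1, a gene related to bacterial heme chaperones, fell from 7.19 ± 0.967 to 3.56 ± 0.221 CPM (SD, n = 3), a log2 fold change of -1.01 that was -0.50 on log2(FPKM + 1). Hccs, which attaches heme to cytochrome c, had -0.21 (adjusted p = 0.0441, edgeR) and kept its call in 7 of 17 alternatives, whose values ran from -0.26 to -0.09. Cox10, Cox15 and Rsad1 kept theirs in all 17.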
